A study of Homo sapiens with 4 samples.

Results

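The ZNF genes of human chromosome 19 were described in RNA of MDA-MB-231-LM2 cells (LM2) and of the parental MDA-MB-231 cells. Members are protein-coding genes of chromosome 19 whose symbol is ZNF followed by digits, each represented by its listed transcript with the highest mean of both count columns. Only genes that averaged 50 counts or more over both columns were kept, which left 214 of the 247 such genes in the annotation. Of these members, 70 lie on the short arm and 144 on the long arm, among 12568 protein-coding genes that reached the same mean. Members were thus chosen by their mean count, and no ratio between the columns was used. A gene that reached the mean through MDA-MB-231 alone had to be lower in LM2, and this held for 5 members, while 0 reached it through LM2 alone.

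LM2 is a subline of MDA-MB-231 that forms lung metastases at a high rate, labelled as highly pulmonary metastatic. MDA-MB-231 is a triple-negative human breast cancer cell line, labelled as parental. LM2 was grown in DMEM with added CO2 and MDA-MB-231 in Leibovitz L-15 medium in air, both with fetal bovine serum, so the effect of the culture conditions and that of the cell line cannot be told apart. Each cell line has 2 samples in the labels, while the deposited table has a single column for each, and the sources used here do not say how the samples went into it. No comparison between the cell lines could thus be checked against replicates, and no p-value is given. Ratios were formed as LM2 over MDA-MB-231 after scaling each count to its column total, with an exact (Clopper-Pearson) 95% interval that covers counting error only. The log2 values have 0.5 counts added to each column. An RPKM value is a count scaled to the length of the transcript and to the total of its column.

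ZNF genes encode zinc finger proteins of the C2H2 class, in which pairs of cysteines and histidines hold a zinc ion and each finger contacts a few bases of DNA. Most of those on chromosome 19 also carry a KRAB domain, which binds the corepressor TRIM28 and through it brings histone methylation and silencing to the bound site. Many of these sites lie in retrotransposons, and the genes themselves arose by repeated duplication in tandem, which left them in clusters. Such clusters are covered in many cell types by histone H3 trimethylated at lysine 9.

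The repeated unit of the family is shown by the coding sequence of 1 finger of ZNF91, a protein known to silence SVA elements, a class of retrotransposon. It is the tenth finger found, counted from the start of the protein, with the link to the next finger, in 84 bases of chromosome 19 (GENCODE release 29, GRCh38). Capitals mark the codons of the paired cysteines and histidines.
ZNF91 finger: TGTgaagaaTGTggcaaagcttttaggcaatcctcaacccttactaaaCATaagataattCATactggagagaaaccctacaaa
Fingers of this form, counted in the 213 members with a translation, numbered between 0 and 31 with a median of 12.

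Promoters of members over 2-fold lower in LM2 and of members with high ratios are shown next, since their letters differ by cluster. They are RefSeq windows of 300 bases in GRCh38.p14, from 250 bases before the gene start to 50 after it, read on the strand of the gene. In capitals stand the letters CCAATCA, which hold the box bound by the factor NF-Y. The other letters in capitals are CCGGAAG, a core motif of ETS factors, and both were searched on either strand. ZNF429, ZNF681 and ZNF726 lie in 1 cluster of the short arm, where the first and second were lower in LM2 and ZNF726 had the highest ratio of all members. ZNF491 comes from the neighbouring cluster, and the other genes shown here lie on the long arm.
ZNF429 (chr19:21505352-21505651, + strand): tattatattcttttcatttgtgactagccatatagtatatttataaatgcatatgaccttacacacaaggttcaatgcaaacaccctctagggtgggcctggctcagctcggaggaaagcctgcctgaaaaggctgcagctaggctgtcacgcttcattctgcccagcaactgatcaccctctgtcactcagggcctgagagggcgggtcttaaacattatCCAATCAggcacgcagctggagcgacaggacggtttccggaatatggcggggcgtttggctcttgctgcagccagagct
ZNF681 (chr19:23758842-23759141, - strand): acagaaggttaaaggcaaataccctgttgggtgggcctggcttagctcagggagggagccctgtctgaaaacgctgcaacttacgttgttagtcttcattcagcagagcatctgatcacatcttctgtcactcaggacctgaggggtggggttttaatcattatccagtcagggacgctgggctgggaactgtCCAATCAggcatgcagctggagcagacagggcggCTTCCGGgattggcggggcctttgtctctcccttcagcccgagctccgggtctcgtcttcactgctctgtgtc
ZNF726 (chr19:23914636-23914935, + strand): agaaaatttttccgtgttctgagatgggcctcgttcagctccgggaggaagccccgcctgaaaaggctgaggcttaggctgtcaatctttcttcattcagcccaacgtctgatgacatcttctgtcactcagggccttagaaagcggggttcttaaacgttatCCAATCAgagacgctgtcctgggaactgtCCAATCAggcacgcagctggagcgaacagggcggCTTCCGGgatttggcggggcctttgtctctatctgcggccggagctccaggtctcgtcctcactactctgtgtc
ZNF491 (chr19:11798273-11798572, + strand): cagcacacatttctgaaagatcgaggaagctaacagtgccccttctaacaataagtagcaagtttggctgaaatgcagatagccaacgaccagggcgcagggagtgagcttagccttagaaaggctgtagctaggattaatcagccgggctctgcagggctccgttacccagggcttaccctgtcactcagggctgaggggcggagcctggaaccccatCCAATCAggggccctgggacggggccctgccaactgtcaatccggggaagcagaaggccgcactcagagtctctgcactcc
ZNF175 (chr19:51571033-51571332, + strand): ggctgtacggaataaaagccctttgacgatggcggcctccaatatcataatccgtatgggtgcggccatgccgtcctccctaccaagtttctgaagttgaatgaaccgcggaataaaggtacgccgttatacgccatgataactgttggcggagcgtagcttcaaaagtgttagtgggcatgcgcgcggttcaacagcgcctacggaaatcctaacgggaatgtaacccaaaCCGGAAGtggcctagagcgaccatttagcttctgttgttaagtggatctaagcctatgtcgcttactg
ZNF329 (chr19:58150740-58151039, - strand): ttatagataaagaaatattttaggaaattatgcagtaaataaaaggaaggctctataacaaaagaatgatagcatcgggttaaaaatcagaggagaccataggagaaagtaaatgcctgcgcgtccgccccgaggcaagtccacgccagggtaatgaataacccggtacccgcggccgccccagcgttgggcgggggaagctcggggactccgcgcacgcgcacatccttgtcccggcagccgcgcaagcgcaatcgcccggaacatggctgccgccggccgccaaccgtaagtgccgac
ZNF544 (chr19:58228664-58228963, + strand): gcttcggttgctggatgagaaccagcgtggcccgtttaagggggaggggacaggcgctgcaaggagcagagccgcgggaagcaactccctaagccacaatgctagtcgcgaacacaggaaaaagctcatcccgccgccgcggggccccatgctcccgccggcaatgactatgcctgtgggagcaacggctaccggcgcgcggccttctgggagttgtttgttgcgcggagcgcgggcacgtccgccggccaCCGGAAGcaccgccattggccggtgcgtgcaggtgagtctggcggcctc
ZNF324 (chr19:58466830-58467129, + strand): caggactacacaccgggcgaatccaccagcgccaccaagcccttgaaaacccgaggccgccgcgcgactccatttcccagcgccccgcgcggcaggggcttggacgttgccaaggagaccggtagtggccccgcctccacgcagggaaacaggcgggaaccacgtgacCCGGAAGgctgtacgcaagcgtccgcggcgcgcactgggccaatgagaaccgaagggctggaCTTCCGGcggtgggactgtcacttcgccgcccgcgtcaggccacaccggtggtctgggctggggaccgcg

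Among the 214 members, more were lower than higher in LM2, mostly by small amounts. The ratio was below 1 in 152 members, or 71.0%, against 49.7% of all protein-coding genes. The interval lay wholly below 1 in 118 members, or 55.1%, wholly above 1 in 31, or 14.5%, and held 1 in 65. Of all protein-coding genes, 39.8% had an interval wholly below 1 and 39.1% one wholly above 1. Over the members the median log2 ratio was -0.20, with quartiles of -0.53 and 0.03. The counts of all members summed to 156324 in LM2 and 179287 in MDA-MB-231. In bulk RNA, fewer cells with a transcript and less of it per cell cannot be told apart.

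Large differences ran in 1 direction. Over 2-fold lower in LM2 were 15 members, or 7.01%, beside a background of 6.76% over all protein-coding genes, so the share of such members was near that of all genes. Of these 15, ZNF429, ZNF382 and ZNF610 had under 50 counts in LM2 and passed the minimum only through MDA-MB-231, so that they had to be lower. On the short arm 9 of 70 members were over 2-fold lower, or 12.9%, and on the long arm 6 of 144, or 4.17%, beside 4.89% and 7.76% of the other protein-coding genes of those arms. Over 2-fold higher were 0 members, beside a background of 4.65%. The interval lay wholly beyond 2-fold lower in 7 members, or 3.27%, beside 4.92% of all protein-coding genes. The middle of the members' distribution was thus below that of all genes, while the share of members over 2-fold lower was close to that of all genes.

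The same values were taken for the groups most like the members. The 683 other protein-coding genes of chromosome 19 had a median log2 ratio of -0.07, with 56.4% below 1, 43 over 2-fold lower and 19 over 2-fold higher. The 218 ZNF genes of other chromosomes had a median of -0.04, with 55.0% below 1, 10 over 2-fold lower and 2 over 2-fold higher. Over all protein-coding genes the median was 0.00. The median of the members was lower than in either of these groups, and with 1 column per cell line the difference between groups could not be tested. On the short arm the members had a median of -0.27 and the other genes one of -0.07, and on the long arm the members had a median of -0.19 and the other genes one of -0.07.

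**Figure D1:**
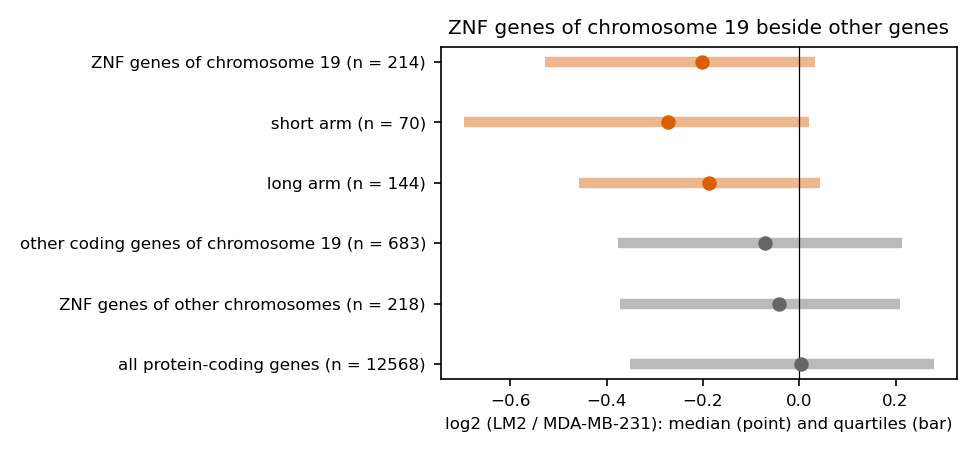
Median (point) and quartiles (bar) of the log2 ratio of LM2 over MDA-MB-231 for the ZNF genes of chromosome 19, for each arm, and for the groups set beside them. The medians of the members lie at -0.20 over all, -0.27 on the short arm and -0.19 on the long arm, against -0.07, -0.04 and 0.00 in the other groups.

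Levels of the members were low. Their median was 1.24 RPKM in LM2 and 1.46 RPKM in MDA-MB-231, 84 members were under 1 RPKM in LM2 and 60 in MDA-MB-231, and 8 had at least 5 RPKM in both. The highest mean level was that of ZNF146, a protein made almost only of zinc fingers, with 13.4 RPKM in LM2 and 12.3 RPKM in MDA-MB-231. ZNF428 followed with 10.3 RPKM in LM2 and 13.2 RPKM in MDA-MB-231. ZNF787 had 10.4 RPKM in LM2 and 9.85 RPKM in MDA-MB-231. These are RPKM levels, so they compare genes of different length. Next in order were ZNF121, with 9.58 RPKM in LM2 and 10.5 RPKM in MDA-MB-231, and ZNF584, with 8.56 RPKM in LM2 and 6.76 RPKM in MDA-MB-231. Between the cell lines these 5 differed by at most 1.29-fold, and 3 of them were higher in LM2.

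The minimum of 50 counts set the edge of the set. Just inside it lay ZNF599, with 34 counts in LM2, against 66 in MDA-MB-231, ZNF154, with 36 counts in LM2, against 67 in MDA-MB-231, and ZNF382, with 19 counts in LM2, against 93 in MDA-MB-231. Just outside lay ZNF578, with 37 counts in LM2, against 59 in MDA-MB-231, ZNF404, with 28 counts in LM2, against 55 in MDA-MB-231, and ZNF575, with 27 counts in LM2, against 56 in MDA-MB-231. All 6 had fewer counts in LM2. The 31 listed genes below the minimum had 208 counts in LM2 and 469 in MDA-MB-231 in all. Both columns held counts for 12 of them, and all 12 had fewer in LM2. At 0 in both columns were 7 genes, 8 were at 0 in LM2 with at most 4 counts in MDA-MB-231, and 4 were at 0 in MDA-MB-231 with at most 3 counts in LM2. A count of 0 allows up to 3 counts, so these low values give no fold. ZNF66 and ZNF723 were not found in the table and were not analysed here.

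ZNF114 had the lowest ratio of all members. It had 222 counts in LM2, against 1445 in MDA-MB-231, that is 0.780 RPKM in LM2 and 5.01 RPKM in MDA-MB-231, and was 6.42-fold lower (95% interval 5.57 to 7.43) in LM2. The gene lies at chr19:48270102-48287608 (GRCh38), on the long arm, apart from the large clusters, and encodes only 3 fingers of the form counted here. An antisense transcript of it, ZNF114-AS1, had 16 counts in LM2, against 87 in MDA-MB-231, and 3.81% of the exon bases of ZNF114 lie under the opposite strand. The counts are not known to separate strands, so the transcripts of this pair cannot be told apart where they overlap.

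ZNF175, also named OTK18 and known as a repressor of the HIV promoter in macrophages, was the other member with a large decrease and a high count. It had 431 counts in LM2, against 1765 in MDA-MB-231, and its level was 0.883 RPKM in LM2 and 3.57 RPKM in MDA-MB-231. It was 4.04-fold lower (95% interval 3.64 to 4.50) in LM2. ZNF175 lies at chr19:51571298-51592508 (GRCh38), at the centromeric end of a cluster of the long arm. Its printed promoter holds 1 CCGGAAG.

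ZNF329, on the same arm, had 211 counts in LM2, against 687 in MDA-MB-231, and was 3.21-fold lower (95% interval 2.75 to 3.77) in LM2. It is the last member before the distal end of the long arm, where most ratios were above 1. ZNF177 of the short arm had 99 counts in LM2, against 299 in MDA-MB-231, and was 2.98-fold lower (95% interval 2.37 to 3.78) in LM2. Of its exon bases, 90.8% also belong to the readthrough gene ZNF559-ZNF177, which had 152 counts in LM2, against 356 in MDA-MB-231, so the counts of the pair share reads and are uncertain for either gene.

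ZNF429 and ZNF382 had low counts in both columns. ZNF429 had 19 counts in LM2, against 97 in MDA-MB-231, and was 5.04-fold lower (95% interval 3.06 to 8.73) in LM2. ZNF382, a KRAB protein that has been described as a tumor suppressor silenced by methylation, was 4.83-fold lower (95% interval 2.93 to 8.38) in LM2, with the counts given above. Both reached the minimum only through MDA-MB-231. ZNF681 had 152 counts in LM2, against 390 in MDA-MB-231, and was 2.53-fold lower (95% interval 2.09 to 3.07) in LM2. With ZNF114, ZNF175, ZNF329 and ZNF177, these make up the 7 members whose interval lay beyond 2-fold.

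The other 8 members over 2-fold lower had intervals that reached inside 2-fold. They were ZNF491, ZNF415, ZNF610, ZNF699, ZNF439, ZNF442, ZNF91 and ZNF493. ZNF491 had 146 counts in LM2, against 347 in MDA-MB-231. ZNF415 had 169 counts in LM2, against 378 in MDA-MB-231. ZNF610 had 43 counts in LM2, against 96 in MDA-MB-231. These 3 were between 2.20-fold and 2.35-fold lower in LM2. ZNF699 had 473 counts in LM2, against 1009 in MDA-MB-231, and ZNF439 had 429 counts in LM2, against 907 in MDA-MB-231. Both had over 400 counts in each column. ZNF91, whose finger is shown above, had 1020 counts in LM2, against 2094 in MDA-MB-231, and was 2.03-fold lower (95% interval 1.88 to 2.19) in LM2. ZNF93, which in human cells represses L1 elements and lies in the same cluster as ZNF91, had 478 counts in LM2, against 456 in MDA-MB-231, a ratio of 1.06 (95% interval 0.93 to 1.21), chosen here after its value was seen.

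Higher in LM2 were members at smaller ratios. ZNF726 had 138 counts in LM2, against 80 in MDA-MB-231, and was 1.75-fold higher (95% interval 1.32 to 2.33) in LM2, the highest ratio of all members. ZNF235 had 181 counts in LM2, against 118 in MDA-MB-231, and was 1.55-fold higher (95% interval 1.23 to 1.98). ZNF837 had 263 counts in LM2, against 181 in MDA-MB-231, and was 1.47-fold higher (95% interval 1.21 to 1.79). The first 3 thus rested on fewer than 300 counts per column. ZNF544 had 3345 counts in LM2, against 2419 in MDA-MB-231, and was 1.40-fold higher (95% interval 1.33 to 1.48), and ZNF8 had 989 counts in LM2, against 717 in MDA-MB-231, and was 1.40-fold higher (95% interval 1.27 to 1.54). ZNF57, ZNF324, ZNF551, ZNF227, ZNF90, ZNF222 and ZNF584 complete the 12 highest, at 1.27-fold to 1.39-fold. Of these 12, ZNF837, ZNF544, ZNF8, ZNF324 and ZNF584 lie at the distal end of the long arm.

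**Figure D2:**
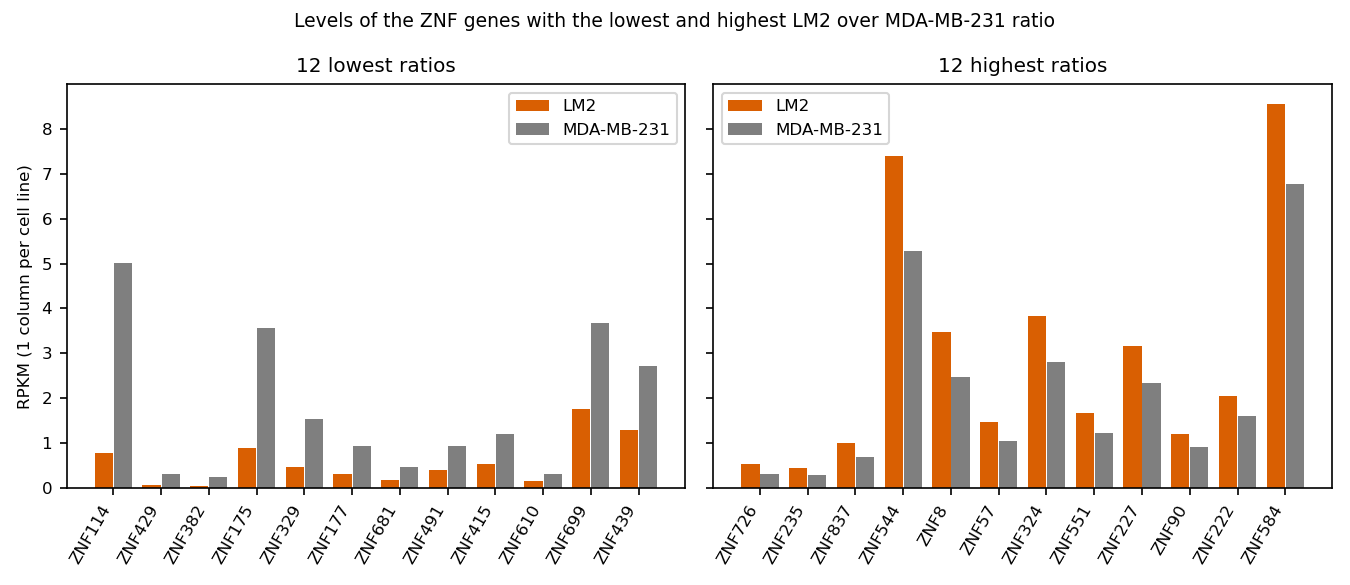
RPKM of the 12 members with the lowest ratio (left) and the 12 with the highest ratio (right), with LM2 as the orange bar and MDA-MB-231 as the grey bar of each pair, 1 column per cell line. ZNF114 has 0.780 RPKM in LM2 and 5.01 in MDA-MB-231, while ZNF726, the highest ratio, has 0.545 RPKM in LM2 and 0.312 in MDA-MB-231.

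Clusters were taken as runs of annotated ZNF genes whose neighbouring starts are at most 1 Mb apart within an arm. There were 8 clusters with at least 5 members, each named here by its first and last annotated gene from the end of the short arm to that of the long arm. Their median log2 ratios ran between -0.48 and 0.08. The cluster that stood highest and the one that stood lowest were on different arms, and the clusters of an arm differed more from each other than the arms did.

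On the short arm, the 25 members from ZNF653 to ZNF791 had the lowest median of the 8 clusters, -0.48, and 23 of them had a ratio below 1. The interval lay wholly below 1 in 20 of these members, or 80%, and wholly above 1 in 1, ZNF20, or 4%. Over all protein-coding genes these shares were 39.8% and 39.1%. Lowest of the 25 members was ZNF491, with the counts given above. ZNF20, the highest, had 657 counts in LM2, against 542 in MDA-MB-231, but 53.3% of its exon bases lie under the readthrough gene ZNF625-ZNF20, which had 766 counts in LM2, against 725 in MDA-MB-231. Counts summed over the cluster were 11797 in LM2 and 15852 in MDA-MB-231. The 3 other protein-coding genes within its span had a median of 0.10, which is the value of ZNF625-ZNF20. This readthrough gene shares exon bases with the members ZNF20 and ZNF625, so the median is not independent of the members.

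The 14 members from ZNF557 to ZNF846 had a median of -0.29, between ZNF177 as the lowest and ZNF557 as the highest, which had 1467 counts in LM2, against 1193 in MDA-MB-231. Below 1 were 10 members. Here the 27 other protein-coding genes within the span also had a median below 0, at -0.21. Without members that have over 50% of their exon bases under another gene, an alternative chosen after the data were seen that removes ZNF177, the median moved to -0.13, and it was -0.13 also with a minimum mean of 200 counts.

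The third large cluster of the short arm, from ZNF101 to ZNF254, lies nearest the centromere and holds 26 members of 37 annotated genes. It had a median of -0.11, and 15 members had a ratio below 1. Its members were spread the most widely, from ZNF429 at a log2 ratio of -2.30 to ZNF726 at 0.80. The 4 members over 2-fold lower, ZNF429, ZNF681, ZNF91 and ZNF493, share this cluster with members at ratios near 1, such as ZNF100, with 845 counts in LM2, against 838 in MDA-MB-231, and ZNF254, with 685 counts in LM2, against 678 in MDA-MB-231, both named after their values were seen. No other protein-coding gene of the span reached the minimum.

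On the long arm, the 36 members from ZNF175 to ZNF331 had a median of -0.43, the lowest of the arm. Below 1 were 33 members. The interval lay wholly below 1 in 28, or 77.8%, and wholly above 1 in 0, beside 39.8% and 39.1% of all protein-coding genes. The 3 members above 1 were ZNF614, ZNF613 and ZNF480, of which ZNF614 was the highest, with 946 counts in LM2, against 891 in MDA-MB-231. ZNF350, a repressor known as ZBRK1 that binds BRCA1, had 395 counts in LM2, against 468 in MDA-MB-231, and ZNF331 had 842 counts in LM2, against 1369 in MDA-MB-231, both named after their values were seen. Counts summed to 23620 in LM2 and 32657 in MDA-MB-231. The 4 other protein-coding genes within the span had a median of -0.52.

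The 24 members from ZNF565 to ZNF573 had a median of -0.28, with 18 below 1. ZNF382 was the lowest. The highest was ZNF568, whose mouse counterpart represses a placental promoter of Igf2, with 480 counts in LM2, against 389 in MDA-MB-231. The 3 other protein-coding genes within the span of this cluster had a median of -0.40. The 5 members from ZNF302 to ZNF792 had a median of -0.26, between ZNF599 as the lowest and ZNF792 as the highest, which had 1615 counts in LM2, against 1311 in MDA-MB-231. No other protein-coding gene of that span reached the minimum. In both clusters the extreme low member was also among the least counted ones.

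The 18 members from ZNF575 to ZNF296 had the highest median of the 8 clusters, at 0.08. Its sign rested on the minimum, since the median was -0.03 over 22 genes with a minimum mean of 10 counts and -0.09 over 23 genes with at least 1 count. Above 1 were 11 members. The interval lay wholly above 1 in 7 (38.9%) and wholly below 1 in 4 (22.2%), beside 39.1% and 39.8% of all protein-coding genes. The highest were ZNF235 and ZNF227, and ZNF227 had 1246 counts in LM2, against 933 in MDA-MB-231. The lowest was ZNF428, with 1845 counts in LM2, against 2408 in MDA-MB-231. ZNF224, a KRAB protein known to repress the aldolase A gene, had 918 counts in LM2, against 1127 in MDA-MB-231, and was named after its value was seen. The 20 other protein-coding genes within this span had a median of -0.20, so here the members stood above their neighbours.

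The largest cluster, from ZNF628 to ZNF446, reaches the end of the long arm and holds 53 members of 59 annotated genes. Its median was -0.16, with 33 members below 1 and 20 above. The 15 other protein-coding genes within its span had a median of 0.05. Among the members ZNF329 was the lowest and ZNF837 the highest. The order of the members within this cluster was not even. The 43 members before ZNF274 had a median of -0.18, and the 10 from ZNF274 to the end of the arm, a division chosen after the values were seen, had a median of 0.31.

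At this distal end, 8 of the 10 members had an interval wholly above 1, beside 39.1% of all protein-coding genes. The division was chosen with these ratios in view, so this share depends in part on it. ZNF274, a KRAB protein that recruits the histone methyltransferase SETDB1 to the 3' ends of ZNF genes, had 2915 counts in LM2, against 2498 in MDA-MB-231, and was 1.18-fold higher (95% interval 1.12 to 1.25) in LM2. ZNF584 had 2494 counts in LM2, against 1997 in MDA-MB-231, and ZNF324 had 1596 counts in LM2, against 1188 in MDA-MB-231. ZNF324 shares at least 80% of its protein sequence with ZNF324B, which had 1227 counts in LM2, against 1025 in MDA-MB-231, so reads can be shared by the pair. The exceptions were ZNF497, with 303 counts in LM2, against 378 in MDA-MB-231, and ZNF132, with 352 counts in LM2, against 452 in MDA-MB-231.

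Most genes at this end without a ZNF symbol also had ratios above 1. Of the 10 other protein-coding genes from ZNF274 onward, 9 had a ratio above 1, beside 6319 of all 12568 protein-coding genes. The median log2 ratio of the 10 was 0.29. Among these 9, ZSCAN22, ZBTB45 and MZF1 also encode zinc finger proteins. TRIM28, the corepressor named above, had 20231 counts in LM2, against 15508 in MDA-MB-231. UBE2M, the enzyme that passes NEDD8 to cullins, had 4625 counts in LM2, against 3580 in MDA-MB-231. The exception was A1BG, with 148 counts in LM2, against 235 in MDA-MB-231.

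**Figure D3:**
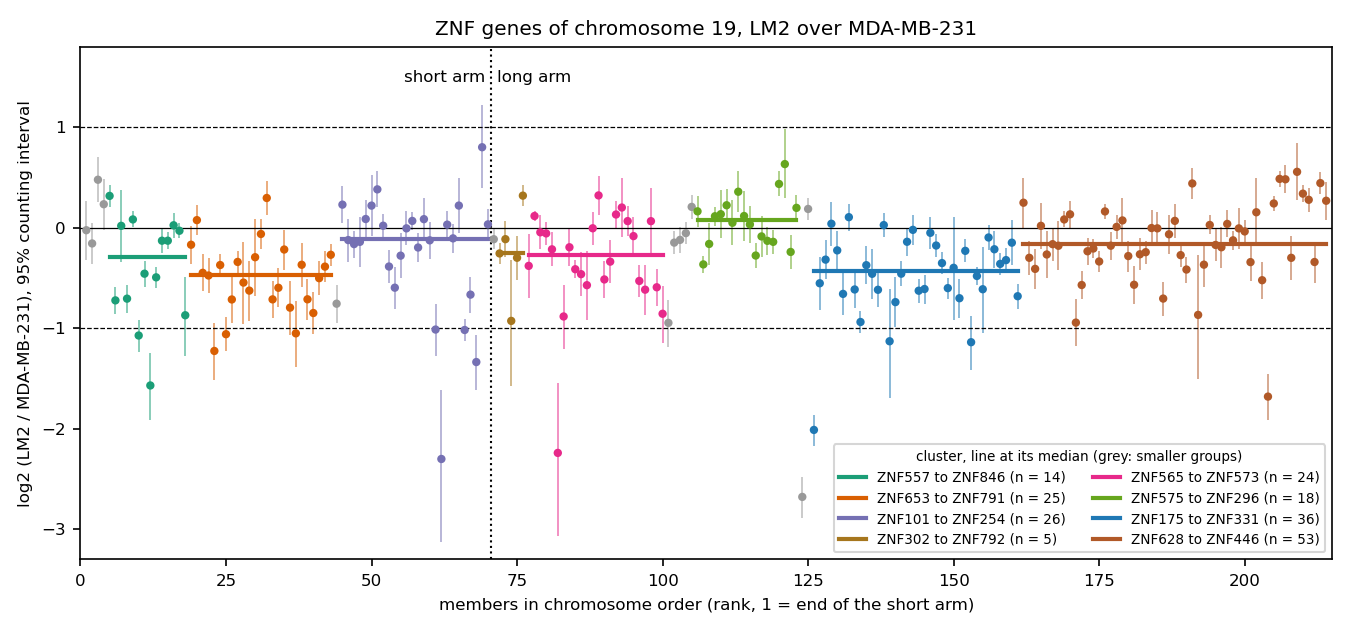
Log2 ratio of LM2 over MDA-MB-231 of each of the 214 members (points, with 95% counting intervals as vertical lines) by their rank along chromosome 19, from the end of the short arm to the end of the long arm. Horizontal lines mark the medians of the 8 clusters, from -0.48 (ZNF653 to ZNF791) to 0.08 (ZNF575 to ZNF296), dashed lines mark 2-fold, and the dotted line divides the arms.

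Neighbouring members were a little more alike than members at large. Over 199 pairs of neighbours within a cluster, the log2 ratios had a Pearson correlation of 0.21 and a Spearman correlation of 0.26, given as a description across genes, which share libraries and in part sequence. The median absolute difference of log2 ratios was 0.31 between neighbours and 0.40 over all pairs of members.

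Smaller groups of members lay between these clusters. ZNF473, a zinc finger protein of the U7 complex that processes histone mRNA, had 1517 counts in LM2, against 1350 in MDA-MB-231. ZNF333 of the short arm had 355 counts in LM2, against 608 in MDA-MB-231, and ZNF507 of the long arm had 1519 counts in LM2, against 1666 in MDA-MB-231. All 3 are named as members without a cluster. The 4 members from ZNF554 to ZNF77, closest to the end of the short arm, had a median of 0.10, and the 3 members from ZNF546 to ZNF780A one of -0.15.

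The promoters of the members shared letters that the choice of members did not use, and these divided by cluster. A RefSeq window was found for 191 members. CCGGAAG stood in 87 of them, or 45.5%, against 10.7% of all 27305 windows and 14.5% of the 15204 windows of protein-coding genes. CCAATCA, searched after the sequences were seen, stood in 56, or 29.3%, against 7.28% of all windows and 8.87% of those of protein-coding genes. In the cluster from ZNF101 to ZNF254 it stood in all 23 windows, and in the cluster from ZNF653 to ZNF791 in 22 of 24. In the clusters from ZNF557 to ZNF846 and from ZNF565 to ZNF573 it stood in 0 of 13 and 0 of 23. CCGGAAG was found in 31 of 49 windows of the cluster from ZNF628 to ZNF446 and in 17 of 29 of that from ZNF175 to ZNF331, but in 2 of 24 of that from ZNF653 to ZNF791. CCAATCA and CCGGAAG cannot overlap each other, and a match is a description of letters, not a bound site. No motif search was among the planned comparisons. CCGGAAG holds a CpG, and the median was 20 CpG in the members' windows and 14 in all windows. The windows set beside the members were not matched for CpG or for tandem duplication.

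Within the cluster from ZNF101 to ZNF254 the windows are alike beyond this box. The run of 16 bases shared by the most members, found after the sequences were seen, is printed here because these promoters hold it in common.
shared run: atcttctgtcactcag
It stood in 11 members, all of this cluster, and in 14 of all 27305 windows. ZNF681 and ZNF726 both hold it, and ZNF429 holds the shorter run tctgtcactcag, which 15 members have. Members with the longer run had a median log2 ratio of -0.28, and they include ZNF681 and ZNF91, lower in LM2, and ZNF726 and ZNF90, higher in LM2. Members that hold this run were thus found both lower and higher in LM2. Whether promoter sequence bears on the ratios was not tested. Members with and without CCAATCA had medians of -0.21 each, and members with and without CCGGAAG had medians of -0.17 and -0.25.

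Other motifs were less tied to the members. GGGCGG, a GC box bound by SP1, stood in 66.5% of the members' windows, in 44.6% of all windows and in 59.6% of those of protein-coding genes. AAGATGGCG, bound by YY1, stood in 3.66% of the members' windows, in 1.85% of all and in 2.82% of those of protein-coding genes. GGGCGG and AAGATGGCG can each overlap CCGGAAG by a few bases. Members with GGGCGG had a median log2 ratio of -0.27 and those without it one of -0.07.

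CpG dinucleotides, the sites of DNA methylation, were fewer in the promoters of members over 2-fold lower than in those of all members. The median was 12 CpG per window in the 13 members over 2-fold lower that have a window, 20 in all 191 members and 14 in all windows. Of the 50 members with under 15 CpG, 8 were over 2-fold lower, of the 86 with 15 to 24 CpG 3 were, and of the 55 with 25 or more 2 were. The medians of these classes were closer together, at -0.22, -0.23 and -0.16. Across the 191 members CpG number and log2 ratio had a Pearson correlation of 0.13 and a Spearman correlation of 0.10, given as a description. The cluster from ZNF101 to ZNF254, which holds 4 of the 15 members over 2-fold lower, also had the lowest median CpG of the clusters, 10 per window, so the part of the cluster and that of CpG were not separated. ZNF382 and ZNF329, with 27 and 28 CpG, were the exceptions with 25 or more. DNA methylation was not measured.

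Proteins with more fingers had slightly lower ratios in the order of their medians. The 54 members with 1 to 9 fingers had a median log2 ratio of -0.16, the 89 with 10 to 14 fingers one of -0.23, and the 69 with 15 or more one of -0.28. Across the 213 members finger number and log2 ratio had a Pearson correlation of -0.06 and a Spearman correlation of -0.13, given as a description. A sequence pattern of the KRAB domain was found in 132 members, with a median of -0.20, against -0.26 in the other 81. That pattern was strict and missed a family of the short arm, and a shorter one chosen after the data were seen was found in 167 members, with a median of -0.23, against -0.15 in the other 46. The order of both medians thus turned with the pattern, and no match does not show that a protein lacks the domain.

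Ratios were lowest among the weakly expressed members. The 69 members with a mean under 1 RPKM had a median log2 ratio of -0.39 and held 9 of the 15 members over 2-fold lower. Those at 1 to 2 RPKM had a median of -0.18, and those at 2 RPKM or more one of -0.16. The medians of all these classes were below 0. The other protein-coding genes of chromosome 19 had a higher median level, 4.78 RPKM in LM2, and no group was matched to the members by level. A part of the level in the difference between groups was not tested. Log2 mean RPKM and log2 ratio had a Pearson correlation of 0.29 and a Spearman correlation of 0.24 over the 214 members, which share both libraries.

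Transcripts of a gene mostly moved as 1. In 76 members with at least 2 transcripts at a mean of 50 counts, the log2 ratios of the transcripts lay within 0.2 of each other in all but 4, ZNF529, ZNF493, ZNF568 and ZNF577. Transcripts of a gene share most of their reads in this table, so they are not independent. In ZNF529 a short non-coding transcript had 73 counts in LM2, against 148 in MDA-MB-231, while the longest coding one had 499 counts in LM2, against 582 in MDA-MB-231. These 4 genes were named after their values were seen.

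Near-identical members count reads that may belong to their copy. At least 80% protein identity to another chromosome 19 ZNF gene was found in 12 members, among them ZNF587, with 1758 counts in LM2, against 1943 in MDA-MB-231, and ZNF417, with 1168 counts in LM2, against 1214 in MDA-MB-231, which are 98.1% identical. None of these 12 was over 2-fold lower, and without them the median of the members was -0.21. In 67 members some exon bases lie under a gene of the opposite strand, and their median log2 ratio was -0.14.

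The genes through which KRAB proteins act had ratios mostly above 1. Of 27 genes of TRIM28-dependent and related heterochromatin silencing, 26 reached 50 counts, 0 were past 2-fold in either direction, and 6 had a ratio below 1. Over all protein-coding genes 6.76% were over 2-fold lower, 4.65% were over 2-fold higher and 49.7% had a ratio below 1. The median log2 ratio of the list was 0.18, beside 0.00 over all protein-coding genes. TRIM28 itself, the corepressor bound by KRAB, was 1.32-fold higher (95% interval 1.29 to 1.35) in LM2, with 53.0 RPKM in LM2 and 40.1 RPKM in MDA-MB-231. SETDB1, the histone H3 lysine 9 methyltransferase recruited by TRIM28, had 2232 counts in LM2, against 2092 in MDA-MB-231, a ratio of 1.08.

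The 4 largest ratios of the list were those of CBX5, ATF7IP, DNMT3A and PPHLN1. CBX5, the heterochromatin protein HP1 alpha, had 12710 counts in LM2, against 7008 in MDA-MB-231, and was 1.84-fold higher (95% interval 1.78 to 1.89) in LM2. ATF7IP, the partner that stabilizes SETDB1, had 3180 counts in LM2, against 1762 in MDA-MB-231, and was 1.83-fold higher (95% interval 1.72 to 1.94). DNMT3A, a methyltransferase that sets new DNA methylation, had 430 counts in LM2, against 250 in MDA-MB-231, and was 1.74-fold higher (95% interval 1.49 to 2.04). PPHLN1, a subunit of the HUSH silencing complex, had 2335 counts in LM2, against 1420 in MDA-MB-231, and was 1.67-fold higher (95% interval 1.56 to 1.78). The other HP1 proteins, named after their values were seen, had ratios near 1, CBX1 with 8005 counts in LM2, against 8006 in MDA-MB-231, and CBX3 with 7761 counts in LM2, against 8272 in MDA-MB-231.

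CHD4, the remodeler of the NuRD complex, had 15623 counts in LM2, against 11575 in MDA-MB-231, and UHRF1, which brings DNMT1 to newly copied DNA, had 11764 counts in LM2, against 8829 in MDA-MB-231. Lower in LM2 was MPHOSPH8, the chromodomain subunit of the HUSH complex, with 2059 counts in LM2, against 2435 in MDA-MB-231, named after its value was seen. EHMT2, a methyltransferase for histone H3 lysine 9, had 295 counts in LM2, against 400 in MDA-MB-231, but it is listed at 25891 bases, and DAXX, which stayed under the minimum, at 13079. Both lie in the major histocompatibility region of chromosome 6, and their values are uncertain.

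**Figure D4:**
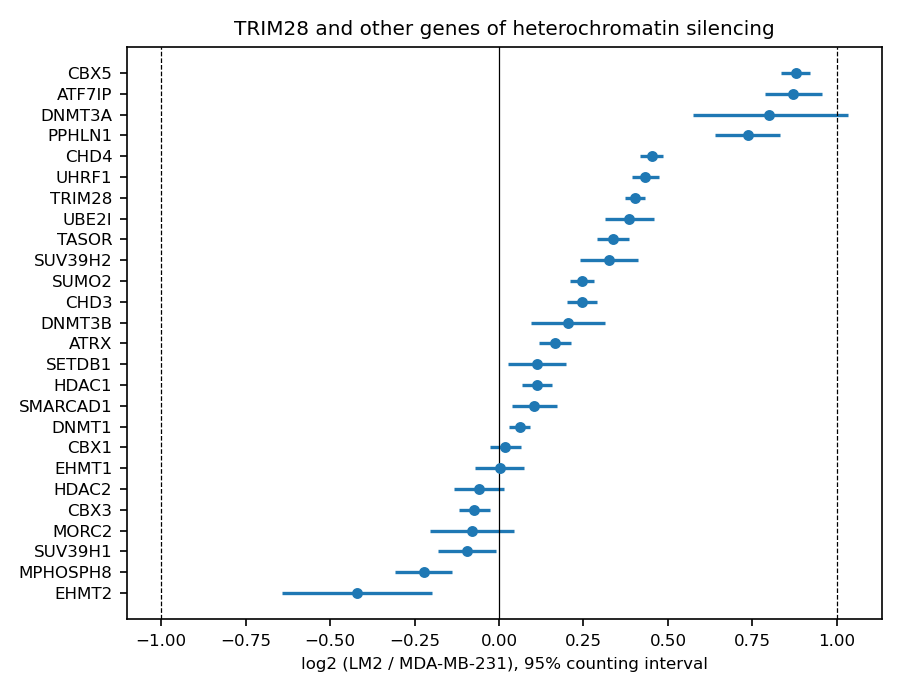
Log2 ratio of LM2 over MDA-MB-231 (points) with 95% counting intervals (lines) of the 26 genes of heterochromatin silencing with a mean of at least 50 counts, ordered by ratio. CBX5, with 12710 counts in LM2 and 7008 in MDA-MB-231, is the highest, and EHMT2, whose listed length is uncertain, is the lowest.

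Zinc finger genes of chromosome 19 with other names were taken as a further list. Of 15 such genes 8 reached 50 counts, 0 were past 2-fold in either direction, 4 had a ratio below 1, and the median log2 ratio was -0.03. The shares over all protein-coding genes were 6.76% over 2-fold lower, 4.65% over 2-fold higher and 49.7% below 1. ZFP30 had 904 counts in LM2, against 1341 in MDA-MB-231, ZFP28 had 852 counts in LM2, against 1169 in MDA-MB-231, and ZFP14 had 240 counts in LM2, against 322 in MDA-MB-231. ZFP82 was the highest, with 745 counts in LM2, against 623 in MDA-MB-231. ZSCAN22 and ZBTB45 of this list lie at the distal end of the long arm, where most ratios were above 1. MZF1 of that end was not on the list, so the median depends on which genes were listed. ZFP112 is listed as ZNF112 and counts among the members.

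As a check of the labels, VIM, which encodes the intermediate filament of mesenchymal cells, had 262027 counts in LM2, against 153536 in MDA-MB-231. ESR1 and PGR, the estrogen and progesterone receptors that triple-negative cells lack, had 8 and 2 counts in LM2, against 2 and 7 in MDA-MB-231, and CDH1, the epithelial cadherin, had 0 counts in LM2, against 13 in MDA-MB-231. EPCAM, another epithelial gene, had 355 counts in LM2, against 361 in MDA-MB-231. VIM was 1.73-fold higher (95% interval 1.72 to 1.74) in LM2, but VIM, ESR1, PGR, CDH1 and EPCAM were not chosen to tell the cell lines apart. IL13RA2 and SPARC, both of the known lung metastasis signature, were chosen for this and differed widely. IL13RA2 had 6402 counts in LM2, against 3 in MDA-MB-231, and SPARC had 10724 counts in LM2, against 120 in MDA-MB-231. The column totals were 128985870 counts in LM2 and 130689252 in MDA-MB-231. At these totals a member near the minimum still has a wide counting interval, as in ZNF599, which was 1.92-fold lower (95% interval 1.25 to 2.99) in LM2.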

How the data were processed

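RNA of LM2 and MDA-MB-231 was sequenced from 2 labelled samples each, and the deposited table has 1 column per cell line. The submitters' processing notes name bcl2fastq, TopHat2 (version 2.0.13) and hg19 (GRCh37). The counter, its annotation and its use of strand were not given in the sources used here. Read counts per transcript were deposited by the authors as whole numbers, and were taken as they stand. The authors also deposited RPKM values, which equal the count over length and column total to a relative difference of 4.98e-06. Transcripts that overlap can count a read more than once.

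Of 65423 transcripts, 62331 were paired with a gene through RefSeq accessions (GRCh38.p14 gene table) and GENCODE release 29. Order, arms (divided at the largest gap between gene starts, 3.46 Mb) and exons came from these tables, and no hg19 coordinate was converted. Ratios and exact 95% intervals were computed as given above, with a floor of 3 counts for a 0, and over 2-fold was read from the ratio. Fingers, the KRAB pattern and identity were found in GENCODE translations, since no RefSeq protein table was used here. Promoter windows are those of RefSeq.

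Named genes were each member with an interval wholly past 2-fold, the 12 largest ratios in each direction, the 5 highest levels, 3 genes on each side of the minimum, the highest and lowest of each cluster, ZNF274, and up to 8 and 4 genes of the other lists by size of ratio. Others are marked. Members and lists were chosen with earlier results of these data known. Intervals were run on simulated counts that varied by counting error alone, as the intervals assume. This run says nothing about the spread between cultures. Calculations used Python 3.11.15, numpy 2.4.6, scipy 1.17.1, pandas 2.3.3 and Biopython 1.88, scalings used edgeR 4.0.16 and DESeq2 1.42.0 in R 4.3.3, and figures matplotlib 3.10.9. Alternatives were other scalings, minimums, transcripts, gaps between clusters, the log2(RPKM + 0.1) scale, and subsets of members.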

Additional observations from a re-analysis of the deposited data

How the results depend on the processing

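The count of members over 2-fold lower, 15, stayed within 10 and 21 under every alternative run: scalings by TMM, upper-quartile and DESeq2 size factors, minimums of 10 and 200 counts or none, other choices of transcript, the log2(RPKM + 0.1) scale and subsets of members. The median over all members stayed between -0.24 and -0.18. The count over 2-fold higher was 0 under each of these as well, where genes at 0 in 1 column with at most 3 counts in the other were given no fold. The median of the cluster from ZNF557 to ZNF846, -0.29, moved to -0.13 with a minimum mean of 200 counts and to -0.13 without members that have over 50% of their exon bases under another gene, an alternative added after the data were seen. The median of the cluster from ZNF575 to ZNF296, 0.08, turned to -0.03 with a minimum mean of 10 counts and to -0.09 with no minimum, where more genes enter. With a gap of 0.5 Mb the largest cluster kept 41 members and its median moved from -0.16 to -0.07. With a gap of 2 Mb clusters merged, so that those from ZNF557 and from ZNF653 became 1 of 39 members at -0.46, those from ZNF175 and from ZNF628 1 of 91 members at -0.23, those from ZNF302 and from ZNF565 1 of 29 members at -0.26, and that from ZNF575 held 23 members at 0.03. Of 216 values of 36 named members, 3 left their interval, those of ZNF429, ZNF382 and ZNF681 on the log2(RPKM + 0.1) scale, which understates changes of low genes. None of the 36 reversed. No paired analysis was possible because the table holds 1 column per cell line, and for the same reason no replicate could be left out. Depth limits members near 50 counts, whose intervals span over 2-fold.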
